A study of Mus musculus with 12 samples.

Results

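The BCL2 family decides whether a lymphocyte lives or dies, and 10 of its genes were followed here across sorted B cells of the mouse peritoneal cavity (PerC): Mcl1, Bcl2, Bcl2l1, Bcl2a1a, Bcl2a1b, Bcl2a1d, Bak1, Bcl2l11, Bmf and Pmaip1. They were taken by name, as survival and death genes, from the 56941 genes of the count table. RNAseq covered 12 libraries in 4 groups of 3: B2 (IgD+IgM+) and MemB (IgD-IgM-) from control mice and from GPR34 knock-in (KI) mice. KI mice are Cd21Cre R26 LSL-Gpr34Q340X-IRES-GFP, an allele in Rosa26 that stays silent until Cre, made under Cd21 control in mature B cells, removes a stop and so allows a truncated and overactive GPR34 to be made with GFP. Both B2 and MemB of a KI mouse can therefore carry the receptor. The labels say no more of the control genotype than that word, and give neither the sex nor the age of a mouse. They call the 3 libraries of a group biological replicates but do not say which B2 and MemB libraries came from the same mouse.

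Proteins of the family act at the outer membrane of the mitochondrion. BCL2, BCL-XL (from Bcl2l1), MCL1 and A1 (from the Bcl2a1 genes) keep the pore formers BAK and BAX in check, and the BH3-only proteins BIM (from Bcl2l11), BMF and NOXA (from Pmaip1) bind the survival proteins and free the pore formers. Naive mature B cells are known to lean on MCL1 and on BAFF receptor signals, memory B cells on BCL2 and MCL1, and A1 is induced by B cell receptor and NF-kB signalling. All of these proteins are also controlled after transcription, which transcript counts do not show.

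The mouse genome holds A1 as near-identical copies, and whether a read can be told to come from Bcl2a1a, Bcl2a1b or Bcl2a1d decides what their counts can mean. On GRCm39 with GENCODE M39, Bcl2a1a lies at chr9:88838953-88844472 on the plus strand, Bcl2a1b at chr9:89081262-89089889 on the plus strand, and Bcl2a1d at chr9:88605338-88613967 on the minus strand. Their coding sequences are each 516 bases long, and the 3 genes differ among themselves at 12 of these positions, 6 of them within the first 90 bases. This opening stretch is shown because those 6 lie in it, with capitals at the positions where the 3 genes are not all alike.
Bcl2a1a: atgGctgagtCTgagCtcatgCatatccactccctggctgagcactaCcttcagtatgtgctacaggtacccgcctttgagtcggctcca
Bcl2a1b: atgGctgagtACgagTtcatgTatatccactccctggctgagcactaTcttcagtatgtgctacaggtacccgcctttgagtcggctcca
Bcl2a1d: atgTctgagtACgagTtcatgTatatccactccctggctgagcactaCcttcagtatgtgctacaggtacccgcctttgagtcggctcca
Bcl2a1a and Bcl2a1b share 97.9% of coding bases, Bcl2a1a and Bcl2a1d 98.6%, and Bcl2a1b and Bcl2a1d, the pair that carries nearly all of the reads here, 98.8%. Of all 50-base windows of the whole transcript, the length of 1 read of a pair, 67.7% in Bcl2a1a, 57.1% in Bcl2a1b and 79.5% in Bcl2a1d occur unchanged in at least 1 of the other two. RSEM shares such reads between the genes by estimate, so the split among the copies is uncertain and their sum is the firmer quantity, although the second read of a pair can still reach a difference. The copy Bcl2a1c had 0 counts in all 12 libraries.

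The promoters were read for 2 motifs that the biology of the family makes relevant, in the RefSeq table of GRCm38.p6, which holds 9 of the 10 genes. The FOXO motif GTAAACA, searched on both strands, occurred near the start site of Bcl2l11 alone among the 9, against 3.6% of all 32851 promoters in the table. BIM is a textbook target of FOXO factors, so the stretch of its promoter that holds the match is shown, at chr2:128125791-128125857 on the plus strand of GRCm38.p6, with the motif in capitals.
Bcl2l11: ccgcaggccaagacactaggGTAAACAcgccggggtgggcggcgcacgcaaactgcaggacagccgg
The kappa-B motif, also searched on both strands, occurred near the starts of Bcl2l1 and Bmf, against 8.5% of all promoters. For both motifs a gene was counted if any of its promoters held a match. The shares are of single promoters, so the 2 measures are not alike. A match of letters is a description and shows no binding, and these windows say nothing on sites elsewhere.

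The libraries held between 29895068 and 39732124 counts, of which ribosomal RNA genes took 29.3% to 38.3%. Gpr34, which checks the genotype labels, stood at 3.42 to 6.87 CPM (counts scaled to library size and normalized between libraries by TMM) in control B2 and 100 to 113 in KI B2, and at 18.8 to 30.8 in control MemB and 132 to 168 in KI MemB. B cell genes such as Cd79a were present in all 4 groups, and Ighd was lower in every MemB than in every B2 library, but Ighm was at 2010 to 2690 CPM in control MemB, a sort negative for IgM, against 297 to 566 in KI MemB. Summed CPM of 7 T cell markers was 73.7 to 124 in control MemB and 9.31 to 47.9 in KI MemB, and that of 5 NK cell markers 12.6 to 46.1 and 0.643 to 6.78. Summed CPM of 6 macrophage markers was 3.45 to 25.9 in control MemB and 0.521 to 1.21 in KI MemB, with Cd14 and Fcgr1 at 0 in both. Summed CPM of 4 B2 markers was 2350 to 3010 in control MemB and 497 to 893 in KI MemB. Ighm, given above, was the larger part of this sum in every MemB library, so the sum is not separate from it. Summed CPM of 5 B1 markers was 597 to 669 in control MemB and 464 to 517 in KI MemB. That of 9 memory B markers was 2540 to 3380 and 4160 to 6740, and this list includes Igha and the Ighg genes. Number 3 of every group stood apart in Xist, at 2420 to 3240 CPM against 29.3 to 66.6 in the other libraries. Replicates varied widely over all genes, the biological coefficient of variation common to all being 91.4%.

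Per kilobase of exon, Mcl1 was the most abundant transcript of the family in all 4 groups, with a mean over the 12 libraries of 248 CPM per kilobase (range 182 to 321). Bak1 at 20.3, Bcl2a1b at 19.8, Bcl2 at 19.4 and Bcl2a1d at 14.3 CPM per kilobase came next, and the ranges of these 4 overlapped so widely that their order is not fixed. Pmaip1 followed at 7.89 and Bcl2l11 at 5.29 CPM per kilobase, with ranges that overlapped each other too. Bmf at 1.59 had a mean below both, and Bcl2a1a at 0.475 and Bcl2l1 at 0.201 CPM per kilobase closed the order. This order takes the Bcl2a1 copies singly, although their split is uncertain. Their sum, the firmer quantity, was not put per kilobase, and A1 as a whole stands higher than any 1 copy. Exon length here is the union of all annotated exons, which understates genes with long, rarely used exons. On the same strand, Bcl2 overlaps 2 other annotated genes and Bcl2a1b and Bcl2l11 1 each, and reads in the overlap may have been counted to either. The spread between libraries differed too: the coefficient of variation over the 12 libraries was 14.5% for Mcl1 and 31.7% for Bcl2, against 85.7% for Bmf, 148% for Bcl2l1, 149% for Bcl2a1d and 256% for Bcl2a1a.

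**Figure D1:**
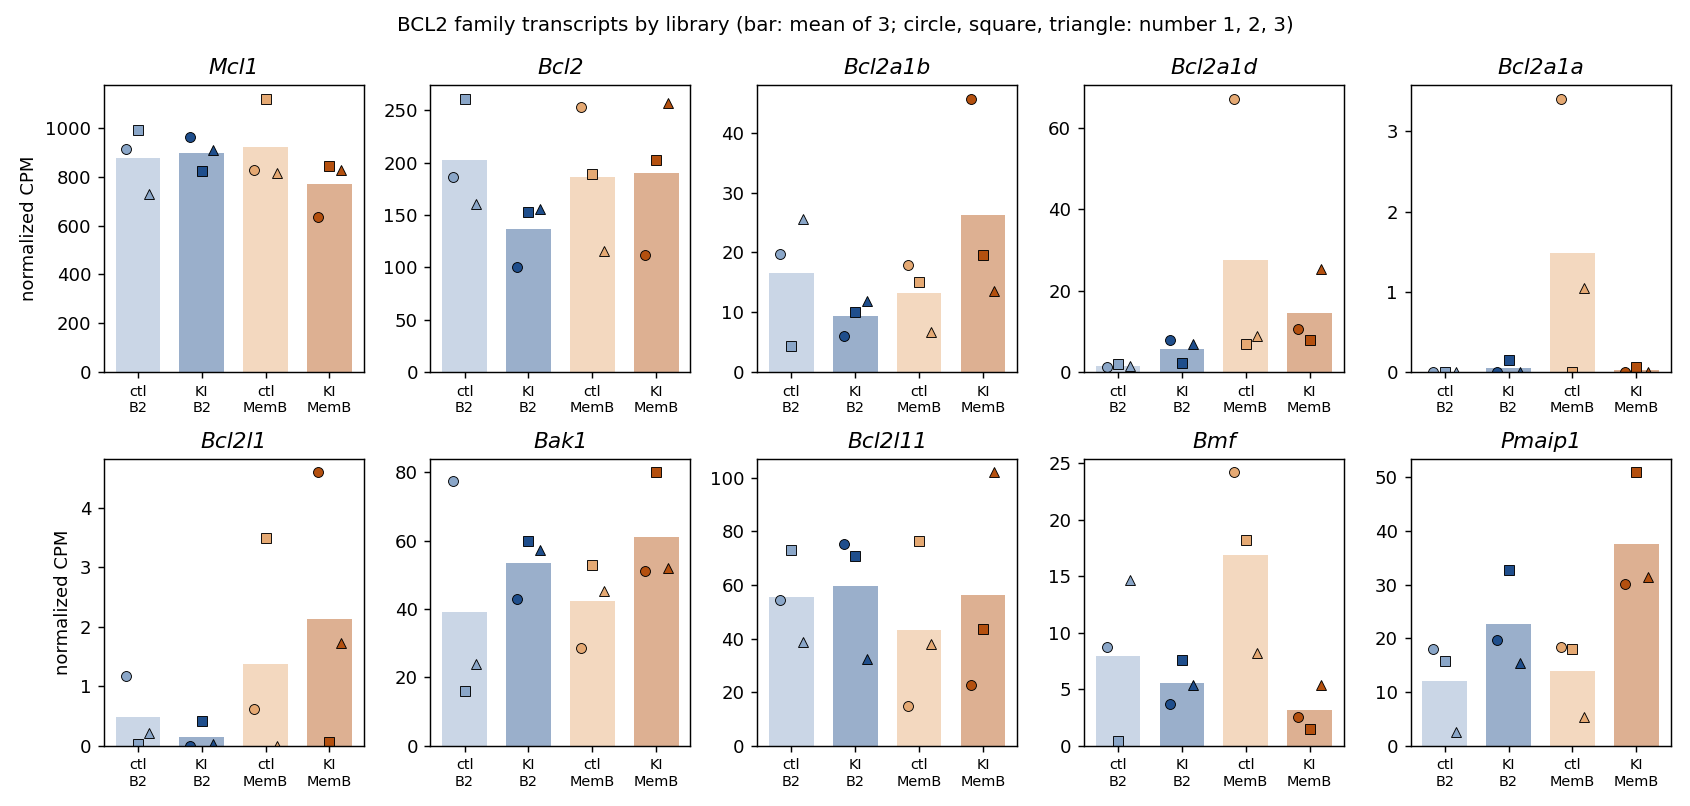
Normalized CPM (vertical axis, linear and from 0, a scale of its own in each panel) of the 10 genes in the 4 groups, with 1 point per library, its number shown by its shape, and a bar at the mean of 3. Mcl1 lies between 635 and 1120 CPM in all 12 libraries, KI MemB lies below control MemB for Bmf and above it for Pmaip1, and the highest Bcl2a1d value, 67.1 CPM, is in 1 control MemB library.

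Of the 10 genes, 9 had enough counts to be tested and Bcl2a1a did not. A gene was called where edgeR's quasi-likelihood test gave an adjusted p below 0.05 over all 15148 genes tested and the log2 fold change exceeded 1 in either direction. Between KI and control, no member was called in MemB, where 0.284% of all genes tested were, nor in B2, where 0.0066% were, by edgeR. DESeq2 also called no member, beside 3.32% in MemB and 0.853% in B2 of the 23686 genes to which it gave a p. At an unadjusted p below 0.05, edgeR gave 1 member in MemB (Bmf) and 0 in B2, beside 11.1% and 5.74% of all genes, and DESeq2 gave 2 in MemB (Bmf and Pmaip1) and 1 in B2 (Bcl2a1d), beside 10.8% and 7.16% of its genes. In MemB, 2 of the 9 had KI and control libraries that did not overlap, as did 12.1% of all genes, and in B2 likewise 2 of 9, beside 10.2% of all genes. The median log2 fold change of the 9 was 0.38 in MemB and 0.035 in B2, beside medians over all genes tested of -0.033 and -0.026. In bulk RNA, fewer cells that express a gene and less RNA of it per cell cannot be told apart.

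**Figure D2:**
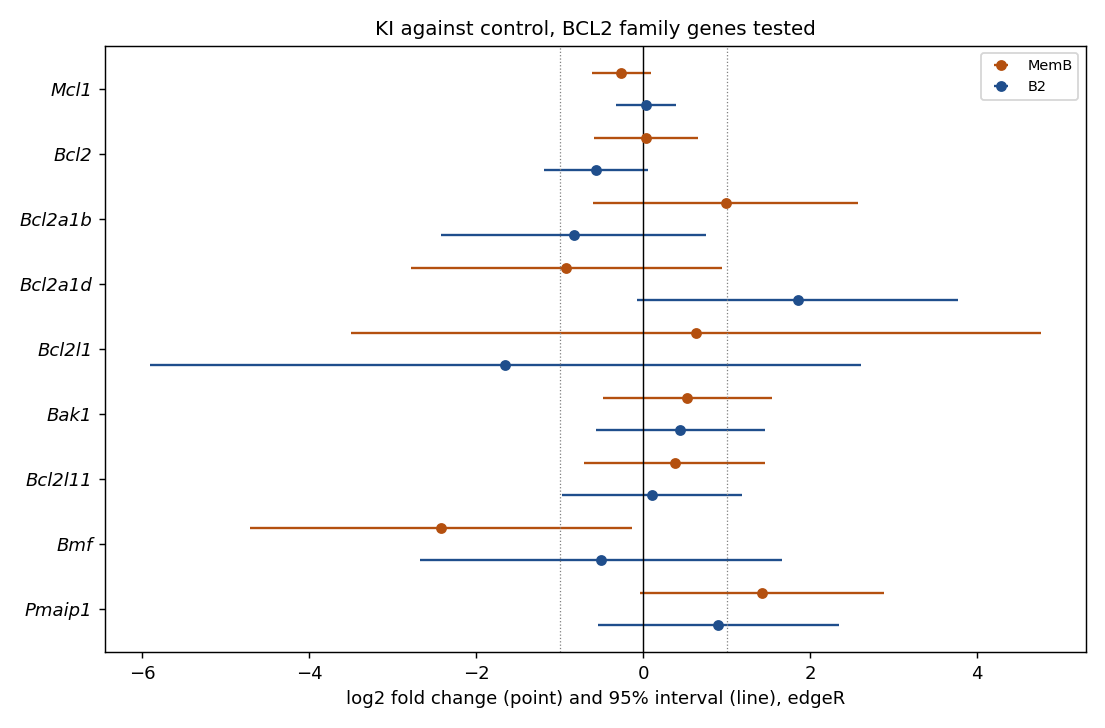
Log2 fold change of KI against control (horizontal axis, points) with 95% intervals (lines) for the 9 genes tested, MemB in orange and B2 in blue, with dotted lines at 1 and -1. The intervals of Mcl1 lie within 1 unit of 0 in both cell types, those of Bcl2l1 span several units, and the interval for Bmf in MemB, -4.70 to -0.14, does not reach 0.

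Among the survival genes, Mcl1 and Bcl2 gave the narrowest intervals. Mcl1 (chr3:95566026-95570487) stood at 912, 990 and 729 CPM in control B2, 964, 823 and 909 in KI B2, 828, 1120 and 816 in control MemB, and 635, 844 and 828 in KI MemB. All 4 groups overlapped. Its log2 fold change of KI against control was -0.26 (95% interval -0.62 to 0.10) in MemB and 0.035 (-0.32 to 0.39) in B2, so a change of 2-fold lay outside both intervals. MCL1 is a short-lived protein, and its transcript level is only 1 of the things that set its amount.

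Bcl2 (chr1:106465908-106642060) stood at 186, 261 and 160 CPM in control B2 and at 100, 153 and 156 in KI B2. All 3 KI B2 libraries lay below all 3 control B2 libraries, though the nearest were only 156 and 160 CPM, and the log2 fold change was -0.57 ± 0.31 (SE, 95% interval -1.19 to 0.054, edgeR adjusted p = 0.854). In MemB, Bcl2 was at 253, 189 and 116 CPM in control and 112, 202 and 257 in KI, which overlapped entirely, with a log2 fold change of 0.035 (-0.58 to 0.66). The KI effect on Bcl2 differed between MemB and B2 by 0.60 (-0.28 to 1.48, adjusted p = 0.775), which did not pass the test. Without number 3 the MemB value turned to -0.48. The B2 value ran from -0.71 without control B2 replicate 3 to -0.34 without control B2 replicate 2, and the difference from 0.33 without KI MemB replicate 3 to 0.88 without control MemB replicate 1.

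Bcl2l1 (chr2:152622582-152673655) was close to the limit of detection. Control B2 had 1.18, 0.034 and 0.215 CPM, KI B2 0, 0.416 and 0.026, control MemB 0.625, 3.49 and 0, and KI MemB 4.60, 0.061 and 1.73. The highest library had 135 counts, and 5 of the 12 had 3 counts or fewer, so 3 counts was taken as the floor and those libraries as at or under it. The 95% interval of its log2 fold change in MemB reached from -3.50 to 4.76, and no difference was detectable given the spread between libraries, which ran from 0 to 119 counts within control MemB and from 2 to 135 within KI MemB.

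Among the 10 members the only call by edgeR was in A1, between the cell types. Bcl2a1d stood at 1.18, 1.91 and 1.59 CPM in control B2, 7.80, 2.15 and 6.94 in KI B2, 67.1, 6.89 and 8.75 in control MemB, and 10.5, 7.87 and 25.4 in KI MemB. Every MemB library lay above every B2 library of its own genotype. Of the 9 members tested, 1 separated in this way in control mice and 2 in KI mice. The share of all genes that separated between MemB and B2 within a genotype was not taken, here or below. For KI against control, also 3 libraries against 3, it was 12.1% in MemB and 10.2% in B2. Over both genotypes the Bcl2a1d groups met, with 6.89 in the lowest MemB library and 7.80 in the highest B2 library. Over both genotypes, Bcl2a1d was higher in MemB than in B2 by 2.76 ± 0.69 on the log2 scale (SE, 95% interval 1.36 to 4.15), about 6.76-fold, with an edgeR adjusted p of 0.0321. It was the only member called in any comparison, 1 of 9, where 1.01% of all genes were called for MemB against B2, and DESeq2 called the same 1, beside 3.48% of its genes. At an unadjusted p below 0.05 it was again 1 of 9, beside 12.9% of all genes, and 0 of 9 had 6 MemB libraries that did not overlap the 6 B2 libraries, beside 1.26% of all genes.

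The call did not survive the loss of several libraries or the summing of the copies. Without control MemB replicate 1 the log2 fold change was 1.85 with an adjusted p of 0.296, and the call was also lost without KI MemB replicate 3 (2.42, adjusted p = 0.111) and without any 1 of the 6 B2 libraries (2.56 to 2.91, adjusted p 0.0591 to 0.106). It was lost as well with a replicate block (2.53, adjusted p = 0.0698), with the mouse as a block (2.32, adjusted p = 0.143) and without number 3 of every group (2.74, adjusted p = 0.160). With the 3 copies added into 1 row before the fit, MemB exceeded B2 by 1.33 ± 0.46 (SE, 95% interval 0.41 to 2.26), which did not pass the test (edgeR adjusted p = 0.159), and the value ran from 0.76 without control MemB replicate 1 to 1.54 without control B2 replicate 3. In control mice alone the log2 fold change of Bcl2a1d was 4.14 (2.04 to 6.24, edgeR adjusted p = 0.0771), and in KI mice alone 1.37 (-0.51 to 3.25, adjusted p = 0.641). Without control MemB replicate 1 the value in control mice was 2.33 (edgeR adjusted p = 0.528), and that in KI mice ran from 0.705 without KI MemB replicate 3 to 1.69 without KI B2 replicate 1. No member was called in either by edgeR, where 0.264% and 0.363% of all genes were, while DESeq2 called Bcl2a1d in control mice (adjusted p = 0.000264) and no member in KI mice, beside 2.84% and 2.7% of its genes. At an unadjusted p below 0.05 control mice gave 1 of 9 and KI mice 0, beside 10.6% of all genes in each. Control MemB replicate 1 had 46.1 CPM of NK cell markers, 14.8 of macrophage markers and 45 of mast cell markers, and control MemB replicate 2, with 6.89 CPM of Bcl2a1d, had 40, 25.9 and 1.53. Control MemB replicate 3, with 8.75 CPM of Bcl2a1d, had 12.6, 3.45 and 241. In B2 the same sums were 0.552 to 14.2, 1.38 to 9.22 and 0.805 to 74.9. B1 marker sums were 150 to 213 CPM in control B2 and 114 to 205 in KI B2. They were higher in MemB, at 597 to 669 in control and 464 to 517 in KI. T cell marker sums were 30.4 to 49.4 CPM in control B2 and 73.7 to 124 in control MemB. In KI mice they overlapped, at 22.4 to 46.3 in B2 and 9.31 to 47.9 in MemB. The part of any of these cells in the Bcl2a1d result was not tested. The summed CPM of 6 granulocyte markers was 0 to 1.87 over the 12 libraries, and its part was not tested either.

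**Figure D3:**
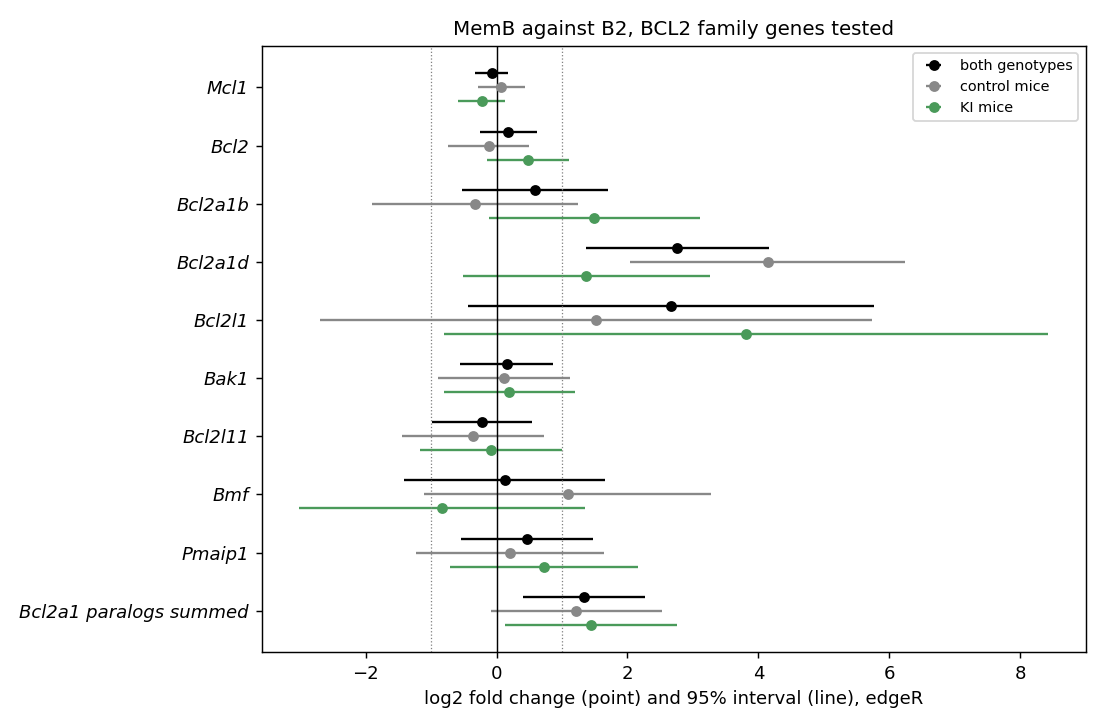
Log2 fold change of MemB against B2 (horizontal axis, points) with 95% intervals (lines) over both genotypes, in control mice and in KI mice, for the 9 genes tested and for the 3 Bcl2a1 copies added together. Bcl2a1d is the only gene whose interval over both genotypes, 1.36 to 4.15, lies wholly above 1, and the summed copies lie at 1.33.

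Bcl2a1b, the copy with most of the reads in 8 of the 12 libraries, was not called, and no difference between the copies was tested. It stood at 19.8, 4.29 and 25.6 CPM in control B2, 6.04, 9.98 and 11.9 in KI B2, 17.9, 15.0 and 6.74 in control MemB, and 45.7, 19.6 and 13.5 in KI MemB. Both KI MemB and control MemB overlapped here, and MemB against B2 over both genotypes gave 0.58 (-0.53 to 1.70). In KI mice all 3 MemB libraries were above all 3 B2 libraries, with a log2 fold change of 1.5 (-0.11 to 3.10, edgeR adjusted p = 0.514). Bcl2a1d likewise did not overlap there, at 1.37, and these 2 of 9 members have no share of all genes beside them. Bcl2a1a was at 0 in 8 libraries, at 0.147 CPM in KI B2 replicate 2 and 0.061 in KI MemB replicate 2, and reached 3.41 and 1.05 CPM in control MemB replicates 1 and 3 only.

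The share of Bcl2a1 reads given to Bcl2a1d ran from 5.61% to 75.9%. In control B2 it was 5.61%, 31.1% and 5.91%, in KI B2 56.3%, 17.6% and 36.9%, in control MemB 75.9%, 31.4% and 52.8%, and in KI MemB 18.6%, 28.7% and 65.3%. Control B2 and control MemB missed each other narrowly in this share, at 31.1% and 31.4%, and KI and control overlapped within each cell type, as did KI B2 and KI MemB. The sum of the copies was 21.0, 6.2 and 27.2 CPM in control B2, 13.8, 12.3 and 18.8 in KI B2, 88.5, 21.9 and 16.5 in control MemB, and 56.1, 27.5 and 39.0 in KI MemB. In KI mice the sum did not overlap between MemB and B2 (log2 fold change 1.45, 0.13 to 2.76, edgeR adjusted p = 0.429), whereas in control mice it did.

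**Figure D4:**
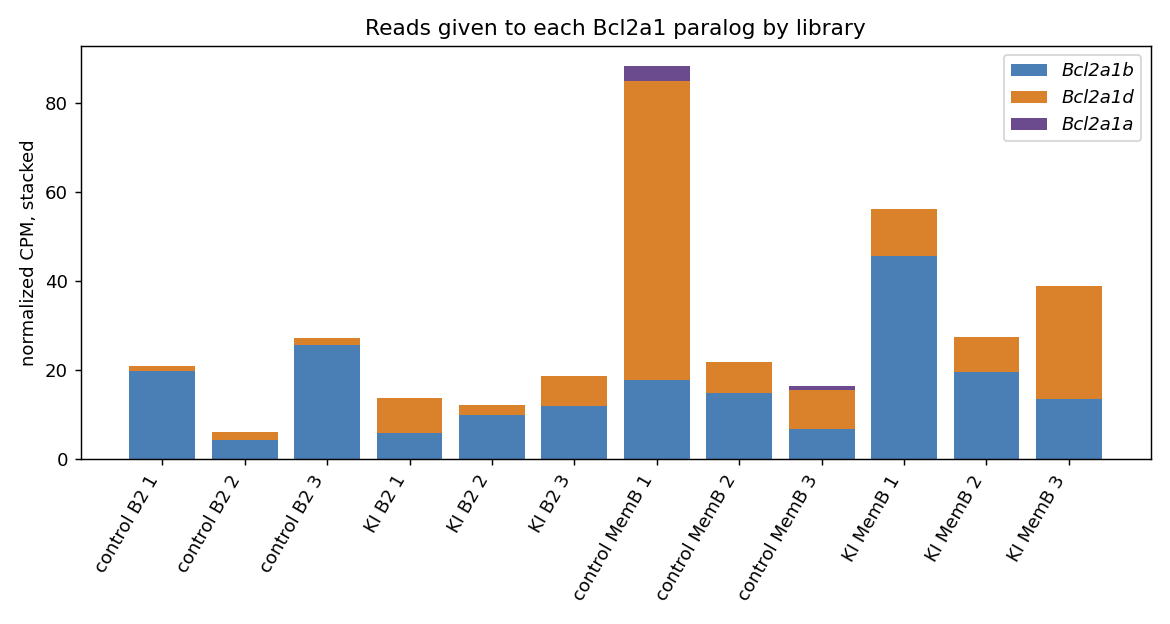
Normalized CPM (vertical axis, stacked) of Bcl2a1b, Bcl2a1d and Bcl2a1a in each of the 12 libraries. The Bcl2a1d segment ranges from 1.18 CPM in control B2 replicate 1 to 67.1 CPM in control MemB replicate 1, and Bcl2a1a is visible only in control MemB replicates 1 and 3.

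The KI effect on Bcl2a1d did not pass the test in either cell type. In B2 all 3 KI libraries were above all 3 control libraries (log2 fold change 1.85, -0.069 to 3.77, edgeR adjusted p = 0.849), and in MemB the value was -0.92 (-2.78 to 0.94). The difference between these effects was -2.77 (-5.43 to -0.10, edgeR adjusted p = 0.572) and did not pass the test. Without control MemB replicate 1 the MemB value turned to 0.90 and the difference was -0.96. For that difference edgeR and DESeq2 both called 0 members, beside 0.066% and 1.77% of all genes, and both gave 1 at an unadjusted p below 0.05, Bcl2a1d, beside 8.49% of all genes by edgeR and 8.38% by DESeq2. Adding the copies together left a difference of 0.23 (-1.60 to 2.05).

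Bak1 (chr17:27238784-27247983), a pore former, stood at 77.6, 15.9 and 23.9 CPM in control B2, 43.0, 59.8 and 57.2 in KI B2, 28.5, 52.9 and 45.4 in control MemB, and 51.1, 80.0 and 52.0 in KI MemB. The widest spread was within control B2, and the genotypes overlapped in both cell types. The log2 fold change of KI against control was 0.53 (-0.48 to 1.54) in MemB and 0.45 (-0.56 to 1.45) in B2. The B2 value moved with the control library left out, at 1.44 without control B2 replicate 1, 0.071 without replicate 2 and 0.19 without replicate 3, and the MemB value ran from 0.29 to 0.72 when each library was left out.

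Among the 10 members, Bmf and Pmaip1 gave the lowest p-values for KI against control in MemB. Bmf (chr2:118359238-118380177), whose protein is known to be released from the cytoskeleton under stress, stood at 24.2, 18.2 and 8.24 CPM in control MemB and 2.59, 1.5 and 5.34 in KI MemB. All 3 KI MemB libraries lay below all 3 control MemB libraries, and the log2 fold change was -2.42 ± 1.12 (SE, 95% interval -4.70 to -0.14), with an edgeR adjusted p of 0.419. In B2, Bmf was at 8.74, 0.436 and 14.7 CPM in control and 3.74, 7.63 and 5.41 in KI, where the KI libraries lay within the range of the control libraries. The value there was -0.51 (-2.68 to 1.67), and the effects in MemB and B2 differed by -1.92 (-5.01 to 1.18, adjusted p = 0.811).

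Pmaip1 (chr18:66591604-66598636) gave values in the other direction. It encodes NOXA, a BH3-only protein that binds MCL1 and A1, and stood at 18.4, 18 and 5.43 CPM in control MemB and 30.1, 50.9 and 31.5 in KI MemB. No control MemB library reached a KI MemB library, and the log2 fold change was 1.43 ± 0.72 (SE, 95% interval -0.033 to 2.89, edgeR adjusted p = 0.457). B2 held 18.1, 15.8 and 2.48 CPM in control and 19.7, 32.8 and 15.4 in KI, which overlapped, with a log2 fold change of 0.90 (-0.55 to 2.34). In control mice number 3 was the lowest library of its group in both cell types. The T, NK and macrophage marker sums given above and those of B2, B1 and memory B cells did not overlap between control MemB and KI MemB either, and their part in the values of Bmf and Pmaip1, or of Pim1 and Tnfrsf13c below, was not tested.

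Set against the survival genes within the same library, the numbers of Bmf and Pmaip1 gave the same picture and no separate evidence. The ratio of Mcl1 to Pmaip1 in CPM was 45, 62.1 and 150 in control MemB and 21.1, 16.6 and 26.3 in KI MemB. The ratio of Bcl2 to Bmf was 10.5, 10.4 and 14.1 in control MemB and 43.3, 135 and 48.2 in KI MemB. Neither ratio overlapped between the genotypes in MemB, whereas in B2 both did.

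Bcl2l11 (chr2:127967958-128004476), whose protein BIM binds all of the survival proteins, stood at 54.2, 73.2 and 38.6 CPM in control B2, 75.2, 70.9 and 32.3 in KI B2, 15.0, 76.4 and 38.1 in control MemB, and 22.8, 43.5 and 102 in KI MemB. Control MemB alone spanned 15.0 to 76.4 CPM and KI MemB 22.8 to 102, which covers the range of all 12 libraries. KI against control gave 0.38 (-0.70 to 1.46) in MemB and 0.10 (-0.97 to 1.18) in B2, and MemB against B2 over both genotypes gave -0.22 (-0.98 to 0.54). That last value ran from -0.60 to -0.016 when each library was left out, and reached -0.80 among the other settings. The ratio of Bcl2 to Bcl2l11 in CPM overlapped between all 4 groups, with 16.9 in control MemB replicate 1 and 1.33 to 4.93 in the other 11 libraries.

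Around the family, 61 other genes of the apoptosis pathway and its regulation were examined, of which 52 could be tested. Between KI and control in MemB, 1 of the 52 rose and 1 fell, beside 12 and 31 of all 15148 genes, and 11 of the 52 had an unadjusted p below 0.05 by edgeR, which is 21.2% beside 11.1% of all genes. DESeq2 called 5 of the 52, beside 3.32% of its genes. Pim1, a kinase that phosphorylates the BH3-only protein BAD, stood at 487, 194 and 353 CPM in control MemB and 122, 105 and 98.7 in KI MemB and fell by 1.67 on the log2 scale (edgeR adjusted p = 0.00396). Without control MemB replicate 1 the log2 fold change was -1.32 with an adjusted p of 0.0648, and without number 3 of every group -1.57 with 0.0862. Tnfrsf13c, the BAFF receptor, stood at 418, 346 and 492 CPM in control MemB and 1070, 804 and 693 in KI MemB and rose by 1.03 (adjusted p = 0.00677). That call was lost without control MemB replicate 2 (log2 fold change 0.91, adjusted p = 0.0831) or KI MemB replicate 1 (0.845, adjusted p = 0.107), and in a fit of the 6 MemB libraries alone (1.03, adjusted p = 0.0564). In B2 the same gene was at 488, 508 and 412 CPM in control and 678, 811 and 800 in KI, again with no overlap, and its log2 fold change of 0.70 did not pass the test (adjusted p = 0.838).

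Among the genes with a p below 0.05 that were not called, Casp2 had 49.3, 75.2 and 121 CPM in control MemB and 26.8, 39.6 and 46.1 in KI MemB (adjusted p = 0.332). Casp6, an executioner caspase, had 0.852, 3.43 and 1.89 CPM in control MemB and 4.30, 39.3 and 5.08 in KI MemB (edgeR adjusted p = 0.346, DESeq2 0.0281). Bach2, a repressor that holds back plasma cell differentiation, had 113, 100 and 75.0 CPM in control MemB and 203, 135 and 120 in KI MemB (adjusted p = 0.380). In B2, 0 of the 52 genes were called by edgeR or DESeq2, beside 0.0066% and 0.853% of all genes, and 3 and 6 had an unadjusted p below 0.05, beside 5.74% and 7.16% of all genes. Mdm2, the ubiquitin ligase of p53, came after Tnfrsf13c in p, with 135, 134 and 135 CPM in control and 60.5, 79.2 and 118 in KI (edgeR adjusted p = 0.838). Of the 13 genes of the apoptosome and caspases, all tested, edgeR called 0 in MemB, beside 0.284% of all genes, and 2 had an unadjusted p below 0.05, Casp2 and Casp6, beside 11.1% of all genes. DESeq2 called Casp6 and Cycs among them, beside 3.32% of its genes. It also called Bcl2l2, which encodes the survival protein BCL-W, whose log2 fold change in MemB by edgeR was -3.54 (95% interval -6.72 to -0.35, adjusted p = 0.393), with groups that overlapped. Bcl2l2 overlaps 1 other annotated gene on the same strand. For the difference of the KI effect between MemB and B2, DESeq2 called 1 of the 52, Bcl2l2 again, beside 1.77% of its genes, and edgeR called 0, with 5 of the 52 at an unadjusted p below 0.05, beside 8.49% of all genes. The difference for Bcl2l2 by edgeR was -5.77 on the log2 scale (-10.14 to -1.40, adjusted p = 0.438).

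For MemB against B2 over both genotypes, edgeR called 1 of the 52, beside 1.01% of all genes, and 10 had an unadjusted p below 0.05, which is 19.2% beside 12.9% of all genes. DESeq2 called 3, beside 3.48% of its genes. These were Fas, which edgeR called too, and Bbc3 and Tnfrsf1a, whose log2 fold changes by edgeR were 2.90 (adjusted p = 0.296) and 3.98 (adjusted p = 0.177). Fas, a death receptor raised on activated B cells, stood at 2.99, 0.537 and 0.797 CPM in control B2, 10.5, 0.391 and 1.58 in KI B2, 8.95, 32.1 and 23.9 in control MemB, and 34.0, 13 and 24.8 in KI MemB. It was higher in MemB by 3.22 on the log2 scale (edgeR adjusted p = 0.0167), with 1 B2 library above the lowest MemB library. The adjusted p was between 0.0512 and 0.0561 without control B2 replicate 2 or 3, KI B2 replicate 3 or KI MemB replicate 1. The log2 fold change was then 3.02 to 3.07. Without number 3 of every group the adjusted p was 0.203 and the log2 fold change 2.84. The part of the T, NK and B1 cell marker sums given above in the Fas result was not tested. Foxo1, a FOXO factor, was lower in MemB by 0.85 on the log2 scale (adjusted p = 0.0235), and Bach2 by 0.81 (adjusted p = 0.036), both below the 2-fold limit. With 1 library left out the adjusted p reached 0.0976 for Foxo1 and 0.131 for Bach2, and without number 3 of every group it was 0.283 and 0.442, with log2 fold changes of -0.68 and -0.49. Without control B2 replicate 2, however, edgeR called Foxo1, at a log2 fold change of -1.005. The median log2 fold change over the 52 genes was -0.007, beside 0.021 over all genes tested and 0.18 over the 9 members.

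Within control mice, the genes of lowest p whose groups did not overlap were Bach2, Fas, Birc6, Rel and Dffa, and within KI mice Foxo1, Pim1, Fas, Mdm2 and Diablo, and edgeR called 0 of the 52 in either, with 11 and 8 at an unadjusted p below 0.05, which is 21.2% and 15.4% beside 10.6% of all genes in each. The shares of all genes called by edgeR were 0.264% and 0.363%. DESeq2 called 4 in control mice and 0 in KI mice, beside 2.84% and 2.7% of its genes. Birc6, an inhibitor of apoptosis, was at 306, 314 and 452 CPM in control B2 and 564, 458 and 493 in control MemB. Rel, an NF-kB subunit that can drive Bcl2a1 transcription, was at 263, 262 and 521 CPM in control B2 and 188, 248 and 252 in control MemB.

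The genes whose log2 CPM followed a member most closely over the 12 libraries, out of all 15148 tested, reached a Pearson r of 0.9 for 4 members. They were Gm56765 (0.930) and Gm11518 (0.906) for Bcl2, Trmt61b (0.916) and Lamp2 (0.914) for Mcl1, Pcf11 (0.914) for Bcl2l11 and Gm16638 (0.902) for Bak1. Among the members themselves the closest pair was Bcl2l1 and Bcl2a1b (r = 0.671) and the most opposed Mcl1 and Bcl2a1b (r = -0.612). These coefficients are a description over 12 libraries of 4 groups, chosen as extremes from many, with library preparation and depth in common.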

How the data were processed

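RNA of sorted PerC B2 and MemB was amplified and sequenced as paired-end reads of 50 bases. Per the labels and the study's methods, reads were examined with FastQC 0.12.1, trimmed (cutadapt 4.5), aligned with STAR 2.7.11a on mm39 and quantified by RSEM 1.3.3. The table the authors deposited gives expected counts by gene for 12 libraries, without normalization, and 32.2% of non-zero values were not whole. These were rounded and tested with edgeR 4.0.16 in R 4.3.3 (TMM, filterByExpr at 10 counts, quasi-likelihood fits with robust dispersion, 1 model of 4 group means, two-sided, Benjamini-Hochberg adjustment over 15148 genes). The standard error is the log2 fold change divided by the square root of F. The study used DESeq2, run here (1.42.0) as an alternative. The procedure was run on simulated data with known changes. The outcome of that run is not reported here, and no result above rests on it.

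All 10 members were named. Of 61 other apoptosis genes, those called, and at most 5 per comparison of lowest p below 0.05 without overlap of the groups, were named. Bcl2l2, Cycs, Bbc3 and Tnfrsf1a were added after their values were seen. The members and lists were chosen with earlier results of these data known. Depth was 29895068 to 39732124 counts. Reads were amplified and carry no molecular identifiers, so the depth speaks to counting error alone, and p-values measure the spread between these libraries, since the labels do not tie them to mice. Motifs and sequences came from RefSeq (GRCm38.p6) and GENCODE M39 (GRCm39). Alternatives were other normalization and filters, DESeq2, blocks, ribosomal or immunoglobulin genes left out, Bcl2a1 copies summed, 6 libraries only, and each library left out. Leaving out number 3 of every group, and carrying the summed row and the pathway genes through all alternatives, were chosen after seeing the data.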

Additional observations from a re-analysis of the deposited data

How the results depend on the processing

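Most directions kept their sign, and those that turned belonged to values that had not passed the test. The 70 single-gene values were those of the 9 tested members and the summed copies in every comparison, and of some pathway genes named for a low p. Of these, 10 changed sign in at least 1 setting other than leaving out 1 library, and 24 did so when 1 library was left out. All that turned were values of members or of the summed copies, none of the pathway genes. The cause was not tested for any of them, except that fewer libraries or a changed row are part of some settings. Bcl2l1 had 3 counts or fewer in 5 and Bcl2a1a in 9 of the 12 libraries, and the split of reads between Bcl2a1b and Bcl2a1d is uncertain.

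The number of members called for MemB against B2 over both genotypes was 0, in place of 1, with a replicate block, with the mouse as a block, with the Bcl2a1 copies summed and without number 3 of every group, and 0 to 1 when each library was left out. The log2 fold change of Bcl2a1d was then 2.53 (adjusted p = 0.0698) with the replicate block, 2.32 (0.143) with the mouse as a block and 2.74 (0.160) without number 3, and it ranged from 1.85 to 2.99 when each library was left out. In control mice 1 member was called with no filter and with DESeq2, and 0 to 1 when each library was left out. The labels do not tie same-numbered libraries to a mouse, so the mouse as a block rests on an assumption. Deviations of same-numbered libraries from the group means correlated between -0.014 and 0.034 across genes, although number 3 of every group shared high Xist.

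Counts of members at an unadjusted p below 0.05 are given to show how they move, not as results about the members. For most of these settings the share of all genes was not taken, and in the main edgeR fit it was 5.74% to 12.9%. With no filter Bcl2a1a, at 3 counts or fewer in 9 of the 12 libraries, could be tested too. KI against control in MemB gave 3 members with no filter and 2 with DESeq2, with the replicate block and with 6 libraries. It gave 0 to 3 when each library was left out. In B2 it gave 1 with DESeq2 and without number 3, and 0 to 1 when each library was left out. The difference of the effects gave 2 with no filter, 0 with the replicate block and with the copies summed, and 0 to 3 when each library was left out. MemB against B2 gave 2 over both genotypes with no filter, and 1 to 3 when each library was left out. In control mice it gave 2 with no filter and with DESeq2 and 0 with the copies summed, and 0 to 3 when each library was left out. In KI mice it gave 1 with DESeq2, with the copies summed, with 6 libraries and without number 3, and 0 to 1 when each library was left out.

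On the log2 scale, KI against control in MemB turned to -0.002 for Bcl2 and 0.11 for the summed copies with the replicate block, and to -0.48 for Bcl2 and -0.46 for Bcl2l11 without number 3. Without number 3, B2 gave -0.076 for Mcl1 and 0.33 for Bmf, the difference of the effects -0.67 for Bcl2l11 and -0.34 for the summed copies, and MemB against B2 in control mice -0.19 for Bak1 and 0.46 for Bcl2a1b. Bcl2l1 in control mice turned to -0.36 with the mouse as a block, which assumes that same-numbered libraries of a genotype share a mouse.

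When each library was left out in turn, KI against control in MemB ranged from -1.59 to 0.90 for Bcl2a1d, -0.38 to 1.08 for Bcl2l11, -0.43 to 1.09 for the summed copies, -0.24 to 0.33 for Bcl2 and -0.61 to 2.75 for Bcl2l1. In B2 it ranged from -4.80 to 0.27 for Bcl2l1, -0.077 to 0.13 for Mcl1, -1.07 to 0.29 for Bmf, -0.099 to 0.40 for Bcl2l11 and -0.69 to 0.14 for the summed copies. The difference of the effects ranged from -0.90 to 0.46 for Bak1, -0.19 to 1.36 for the summed copies and -0.48 to 0.97 for Bcl2l11. MemB against B2 over both genotypes ranged from -0.19 to 0.52 for Bmf and -0.034 to 0.65 for Bak1. In control mice it ranged from -0.40 to 0.13 for Bcl2, -0.27 to 1.10 for Bak1, -0.092 to 0.16 for Mcl1, -0.78 to 0.14 for Bcl2a1b, -0.28 to 0.63 for Pmaip1, -1.06 to 0.056 for Bcl2l11 and -0.60 to 3.43 for Bcl2l1. In KI mice it ranged from -0.84 to 0.30 for Bcl2l11 and -0.047 to 0.31 for Bak1. Without a change of sign, Bmf in MemB ranged from -3.04 to -2.07 and Pmaip1 from 1.04 to 1.69 for KI against control, Mcl1 in MemB from -0.34 to -0.096, Pmaip1 in B2 from 0.42 to 1.34, and Bcl2a1b for MemB against B2 from 0.25 to 0.82 over both genotypes and 0.84 to 1.81 in KI mice.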
